A study of Mus musculus with 3 samples.

Results

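The clonotypes described here were T cell receptor (TCR) beta chains found in the DN library alone or in the CD8 library alone. A clonotype was 1 combination of nucleotide CDR3, V gene and J gene. It was kept when its CDR3 could be read in frame without a stop codon and when no read of it was listed in either other library. This rule left 28991 DN-only clonotypes of 38188 in-frame clonotypes in the DN library (75.9%) and 67828 CD8-only clonotypes of 77240 in the CD8 library (87.8%), together 96819 of the 168230 clonotypes of all kinds listed for the 3 libraries. The values that chose the members were the presence or absence of reads, so neither these numbers nor the lack of overlap between the sets is a finding. At this depth a clonotype without a read in a library may still have been present in its cells.

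CD4, CD8 and double-negative (DN) T cells were sorted by flow cytometry from the spleen of 1 MRL.lpr mouse aged 16 weeks, and the mRNA of 1000000 cells of each subset was made into 1 library. MRL.lpr is a lupus-prone strain in which the lpr mutation inactivates the death receptor Fas, and T cells without CD4 or CD8 accumulate in its lymphoid organs. All 3 subsets carried lpr, and no Fas-sufficient mouse was compared. The study asked whether DN T cells arise from self-reactive CD8 T cells, and addressed this with transfers of CD8 T cells among other experiments. Clonotypes read in both libraries were left out here, so the comparison below does not answer that question. The tables held receptor chains and no other genes, so the identity of the sorted cells could not be checked against CD4, CD8 or lineage markers. With 1 library per subset there was no replicate check, no test was applied, and the comparisons are between libraries. The intervals are 95% intervals that cover counting error only: no molecular identifiers were given, so several reads may come from 1 mRNA molecule.

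The beta chain is assembled in the thymus by joining 1 V, 1 D and 1 J gene segment. Bases are trimmed from the ends and added without template at both junctions. The join encodes CDR3, the loop that most often contacts the peptide presented by an MHC molecule, while the V segment also encodes the loops that mainly contact the MHC molecule itself. CD8 T cells are selected on MHC class I and CD4 T cells on MHC class II.

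The largest members show what a clonotype looks like. Each is printed from the codon of the conserved cysteine to that of the conserved phenylalanine, with the codons of the CDR3 core (without the first 4 and the last 4 residues) in capitals, since charge and residue use were measured there.
DN-only, TRBV19 with TRBJ2-1: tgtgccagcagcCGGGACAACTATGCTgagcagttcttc
DN-only, TRBV5 with TRBJ2-7 (a): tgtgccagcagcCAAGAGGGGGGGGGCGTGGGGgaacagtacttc
DN-only, TRBV5 with TRBJ2-7 (b): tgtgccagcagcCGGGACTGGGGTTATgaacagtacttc
CD8-only, TRBV13-3 with TRBJ2-7: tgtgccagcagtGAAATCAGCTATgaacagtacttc
CD8-only, TRBV16 with TRBJ2-3: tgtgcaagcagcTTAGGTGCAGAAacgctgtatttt
CD8-only, TRBV13-2 with TRBJ1-3: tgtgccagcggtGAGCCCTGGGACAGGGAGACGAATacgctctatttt

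The 3 DN-only clonotypes had 66, 52 and 38 reads, and the 3 CD8-only clonotypes had 104, 100 and 82 reads. The largest made up 0.0340% of the TRB reads of the DN library and 0.0689% of those of the CD8 library. Larger clonotypes were left out by the rule: the largest in-frame clonotype had 1374 reads in the DN library and 3260 in the CD8 library. Most members were rare: 63.6% of DN-only clonotypes (63.0 to 64.1%) and 71.1% of CD8-only clonotypes (70.8 to 71.5%) had a single read. DN-only clonotypes held 53378 reads, or 28.8% of the in-frame TRB reads of their library, and CD8-only clonotypes held 104316 reads, or 71.8%. The TRB reads of the libraries numbered 194290 for DN, 150874 for CD8 and 133667 for CD4, and a count of 0 clonotypes allows a share of up to 0.0103% in the DN-only set and 0.00442% in the CD8-only set. Each clonotype was counted once in all values below. The 35785 CD4-only clonotypes, chosen by the same rule, were used as a further set of values.

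V gene use differed widely between the sets. TRBV13-1 (Vβ8.3) was the most frequent V gene among DN-only clonotypes, with 19.3% (18.8 to 19.7%; 5588 clonotypes), against 8.12% of CD8-only clonotypes (7.91 to 8.33%; 5506 clonotypes), a ratio of 2.37 (2.29 to 2.46). The share in the CD4-only set was 12.2%. Of 21 V genes with at least 50 clonotypes in both sets together, 14 had a ratio of at most 0.8 or of at least its inverse (66.7%), the fold used for V and J genes. The share was higher in DN-only for 5 of them (23.8% of the genes compared) and lower for 9 (42.9%).

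The 4 other V genes that were higher in DN-only were TRBV2 (Vβ4), TRBV17 (Vβ9), TRBV5 (Vβ1) and TRBV13-2 (Vβ8.2). TRBV2 made up 1.54% of DN-only and 0.986% of CD8-only clonotypes, a ratio of 1.56 (1.38 to 1.76). TRBV17 made up 9.46% and 6.17%, a ratio of 1.53 (1.46 to 1.61), and had 2.89% in the CD4-only set. TRBV5 made up 6.92% and 4.98%, a ratio of 1.39 (1.32 to 1.46). These genes did not share a direction against CD4: TRBV2 and TRBV5 were more frequent in CD4-only clonotypes (4.69% and 11.3%) than in either other set, whereas TRBV17 was least frequent there. TRBV13-2 made up 12.97% of DN-only, 10.05% of CD8-only and 12.8% of CD4-only clonotypes, a ratio of DN-only to CD8-only of 1.29 (1.24 to 1.34).

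The 3 members of the Vβ8 family, which lie close together on the chromosome, went in different directions. TRBV13-3 (Vβ8.1) was lower in DN-only clonotypes, with 9.96% against 15.4% in CD8-only, a ratio of 0.645 (0.621 to 0.671), and it made up 4.85% of CD4-only clonotypes. The family as a whole made up 42.2% of DN-only (41.6 to 42.8%), 33.6% of CD8-only (33.2 to 34.0%) and 29.8% of CD4-only clonotypes. A measure of Vβ8 as 1 family therefore mixed a gene that was 2.37 times as frequent with a gene that was 0.645 times as frequent.

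The lowest ratios were those of TRBV16 (Vβ11), the Vβ5 genes TRBV12-1 and TRBV12-2, and TRBV14 (Vβ13). TRBV16 had 58 DN-only and 862 CD8-only clonotypes, 0.200% against 1.27%, a ratio of 0.157 (0.121 to 0.205). TRBV12-1 and TRBV12-2 together had 23 and 272 clonotypes, 0.0793% (0.0503 to 0.119%) against 0.401% (0.355 to 0.451%), a ratio of 0.198 (0.129 to 0.303). The paper reports the other order for Vβ5, a larger proportion of clones in DN than in CD8 T cells. That proportion was taken over all clone counts of a library, and the V genes counted as Vβ5 are not named. Vβ5 and Vβ11 are families that endogenous retroviral superantigens are known to delete from the repertoire of many mouse strains. TRBV15 of Vβ12, a further such family, was not among the lowest, with 27 and 67 clonotypes (0.943, 0.603 to 1.47). TRBV14 had many more members: 734 DN-only clonotypes (2.53%) stood against 4782 CD8-only clonotypes (7.05%), a ratio of 0.359 (0.333 to 0.388). In CD4-only clonotypes TRBV16 and TRBV14 were lower still, at 0.106% and 1.196%. TRBV12-1 and TRBV12-2 together were at 0.310% there, between the DN-only and the CD8-only share.

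The remaining V genes past the fold were all lower in DN-only. TRBV31 (Vβ14), which lies at the far end of the locus and joins by inversion, made up 6.79% of DN-only and 11.5% of CD8-only clonotypes, a ratio of 0.592 (0.565 to 0.621). TRBV20 (Vβ15) had 1.72% and 2.98%, a ratio of 0.578 (0.525 to 0.637), and TRBV3 (Vβ16) had 0.417% and 0.781%, a ratio of 0.534 (0.439 to 0.650). TRBV23 (Vβ20) had 13 and 60 clonotypes and a wide interval, 0.507 (0.278 to 0.923). Within the fold were TRBV1 (Vβ2; 11.7% and 11.4%), TRBV4 (Vβ10; 3.71% and 3.67%), TRBV19 (Vβ6; 7.495% and 9.09%), TRBV26 (Vβ3; 1.83% and 2.13%), TRBV29 (Vβ7; 2.66% and 3.27%), TRBV30 (Vβ18; a ratio of 0.891) and TRBV15 (Vβ12; 27 and 67 clonotypes, 0.943, 0.603 to 1.47). TRBV21, TRBV22, TRBV24 and TRBV25 had 10, 6, 19 and 1 DN-only clonotypes and 18, 4, 23 and 0 CD8-only clonotypes, too few to be compared.

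**Figure D1:**
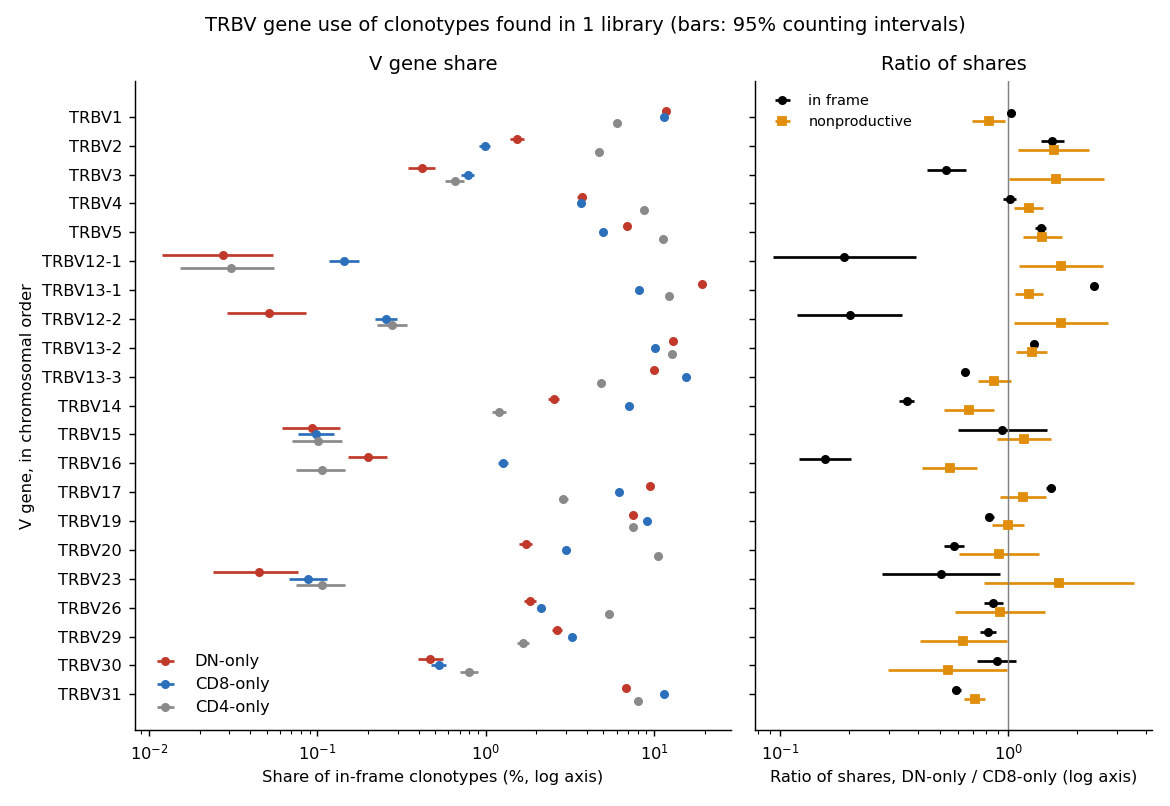
Left, share of in-frame clonotypes (%, log axis) using each of the 21 V genes in chromosomal order, for DN-only, CD8-only and CD4-only clonotypes. Right, ratio of the DN-only to the CD8-only share (log axis) for in-frame and for nonproductive clonotypes. Bars are 95% counting intervals. TRBV13-1 has the highest in-frame ratio (2.37) and TRBV16 the lowest (0.157). TRBV3, TRBV12-1, TRBV12-2, TRBV15 and TRBV23 lie below 1 in frame and above 1 among nonproductive clonotypes, and TRBV1 the other way. The nonproductive intervals of TRBV15 and TRBV23 include 1.

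Nonproductive rearrangements give a second look at V gene use, because a chain with a frame shift or stop codon is not displayed on the cell and is carried along by the productive chain of the same cell. Nonproductive clonotypes found in 1 library numbered 3368 in DN and 3651 in CD8. Some listed frame shifts may be errors in a read of an in-frame chain, and their part was not tested. TRBV13-1 made up 10.8% of nonproductive DN and 8.76% of nonproductive CD8 clonotypes, a ratio of 1.23 (1.07 to 1.42), against 2.37 in frame. The intervals of these ratios did not overlap. For TRBV12-1 and TRBV12-2 the direction turned: they made up 2.94% of nonproductive DN and 1.73% of nonproductive CD8 clonotypes, a ratio of 1.70 (1.246 to 2.33), against 0.198 in frame. TRBV3 also turned, to 1.63 with an interval that began near 1 (1.01 to 2.62). TRBV16 and TRBV14 kept their direction with smaller differences, at 0.554 (0.418 to 0.732) and 0.671 (0.523 to 0.862). TRBV5 had nearly the same ratio in both, 1.41 (1.15 to 1.72) nonproductive and 1.39 in frame, and so did TRBV13-2, at 1.27 and 1.29.

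J gene use was much closer between the sets. Of 12 J genes, 2 were past the same fold (16.7%), none of them higher in DN-only (0%) and both lower (16.7%). TRBJ1-2 made up 3.84% of DN-only and 4.90% of CD8-only clonotypes, a ratio of 0.782 (0.732 to 0.836), and TRBJ1-3 made up 3.86% and 4.85%, a ratio of 0.796 (0.744 to 0.850). Both ratios lie close to the fold, and 6 of 14 alternative settings changed this count. TRBJ2-7 was the most used J gene in both sets, with 23.1% and 20.6%, a ratio of 1.12 (1.09 to 1.148). TRBJ2-1 had 16.0% and 13.7%, a ratio of 1.16 (1.12 to 1.2), and TRBJ1-6 had 4.08% and 3.53%, a ratio of 1.16 (1.08 to 1.24). The other J genes had ratios of 0.838 (TRBJ2-4), 0.886 (TRBJ2-5), 0.917 (TRBJ2-2), 0.931 (TRBJ1-5), 0.974 (TRBJ2-3), 1.03 (TRBJ1-1) and 1.03 (TRBJ1-4).

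The TRBJ2 cluster, which lies next to TRBD2, took 70.3% of DN-only and 69.1% of CD8-only clonotypes, a ratio of 1.02 (1.01 to 1.03). Its share was 62.5% in CD4-only clonotypes. Among nonproductive clonotypes the ratio was on the other side of 1, 72.0% against 75.5% (0.954, 0.928 to 0.981). The calls of the D segment differed more. TRBD2 was called in 39.8% of DN-only and 31.4% of CD8-only clonotypes, a ratio of 1.27 (1.248 to 1.294). Within joins to TRBJ2 genes its shares were 53.9% and 43.1%. TRBD1 was called in 37.2% and 42.4%, and no D gene in 22.96% and 26.2%. Among nonproductive clonotypes TRBD2 was called in 44.5% of DN and 46.4% of CD8 clonotypes (0.958, 0.910 to 1.01). By gene order TRBD2 cannot join a TRBJ1 gene by deletion, yet 6.56% and 5.10% of TRBJ1 clonotypes were called TRBD2. This gives the scale of uncertain D calls. The ratio of these calls was 1.29 (1.17 to 1.42), close to that of TRBD2 over all clonotypes. How far uncertain calls entered the difference in TRBD2 was not tested.

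Pairs of V and J genes followed the V gene. Of 175 pairs with at least 50 clonotypes, 80 differed by at least 1.5-fold (45.7%), 26 higher (14.9%) and 54 lower (30.9%) in DN-only. TRBV13-1 was higher past 1.5-fold with all 12 J genes (ratios 1.68 to 2.91) and TRBV14 lower past 1.5-fold with all 12 (0.187 to 0.514). TRBV16 was below 1 with each of 7 J genes compared (0.117 to 0.257), and TRBV13-3, TRBV31 and TRBV20 were below 1 with 12 of 12. TRBV5 and TRBV17 were above 1 with 12 of 12, and TRBV13-2 with 10 of 12. No J gene turned the direction of these genes apart from the pairs of TRBV13-2, whose lowest ratio was 0.931.

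Among 157 pairs with at least 100 clonotypes, the 5 highest ratios all belonged to TRBV13-1. They were those with TRBJ2-2 (2.91, 2.44 to 3.46), TRBJ2-1 (2.80), TRBJ2-7 (2.76), TRBJ1-6 (2.69) and TRBJ1-1 (2.44). TRBV13-1 with TRBJ2-7 was the largest of these, with 1423 DN-only clonotypes (4.91%) and 1206 CD8-only clonotypes (1.78%). The 5 lowest were TRBV16 with TRBJ1-1 (5 against 100 clonotypes; 0.117, 0.0477 to 0.287), TRBJ2-5 (0.157) and TRBJ2-7 (0.165), and TRBV14 with TRBJ2-4 (27 against 337 clonotypes; 0.187, 0.127 to 0.277) and TRBJ2-3 (0.223). In 131 of the 157 pairs the ratio lay within the V gene fold (0.8 to its inverse) of the product of the ratios of its V gene and its J gene, and in 153 within 1.5-fold. The largest departures upwards and downwards were both in TRBV14: with TRBJ1-2 the ratio was 0.514 where the product was 0.281, and with TRBJ2-4 it was 0.187 where the product was 0.301.

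**Figure D2:**
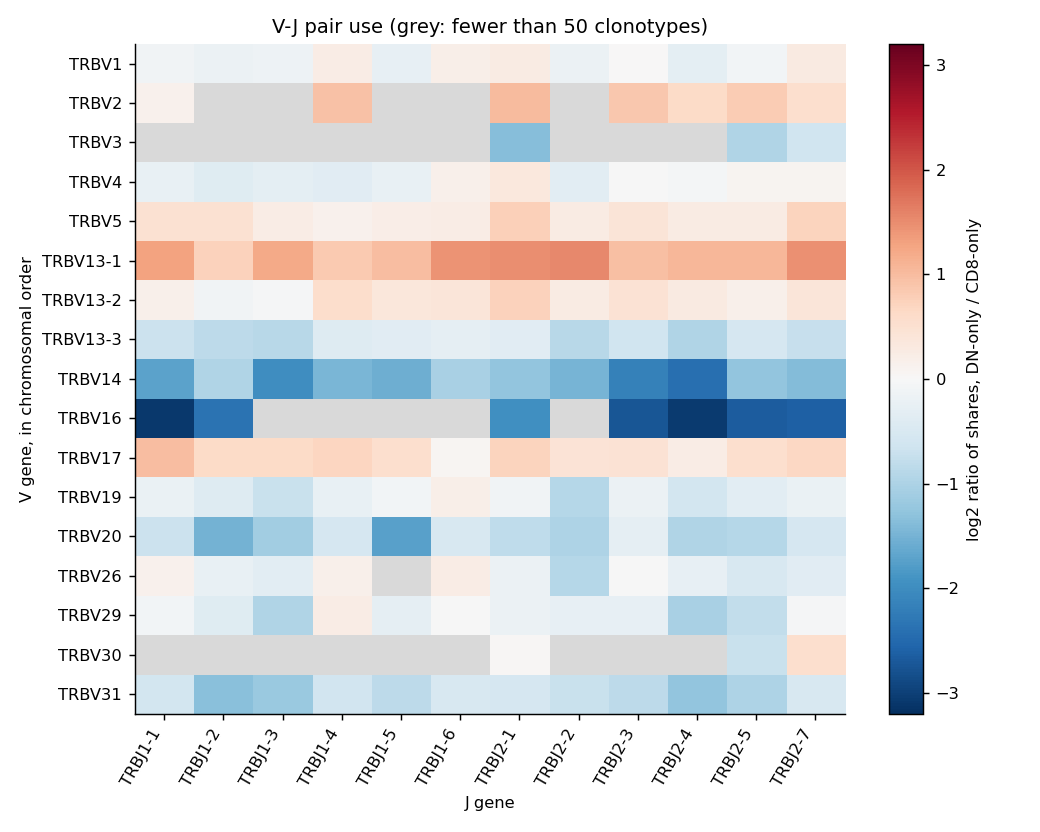
Log2 ratio of the DN-only to the CD8-only share for each V-J pair, with V genes in chromosomal order as rows and J genes as columns, red where higher in DN-only and blue where lower. Grey pairs had fewer than 50 clonotypes, and V genes without a pair of 50 clonotypes are not drawn. The TRBV13-1 row is red (ratios 1.68 to 2.91) and the TRBV14 row blue (0.187 to 0.514) for all 12 J genes.

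CDR3s of DN-only clonotypes were longer. Their mean length was 14.24 amino acids (SD 1.51 over clonotypes, n = 28991), against 13.90 in CD8-only (SD 1.52, n = 67828) and 13.92 in CD4-only clonotypes (SD 1.48, n = 35785). The difference between DN-only and CD8-only was 0.341 amino acids (0.320 to 0.362), small beside the spread within each set, and both medians were 14. It arose over the whole range: the ratio of shares rose from 0.678 at 11 residues through 0.921 at 14 to 1.23 at 15, 1.38 at 16 and 1.64 at 18. CDR3s of 15 residues or more made up 45.3% of DN-only and 34.6% of CD8-only clonotypes. Those of 12 or fewer made up 11.8% and 16.2%.

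The difference in length was found within V genes as well. Of 16 V genes compared, 15 had longer CDR3s in DN-only clonotypes, 14 of them with an interval above 0. The difference ranged from 0.407 amino acids for TRBV13-3 to -0.0904 for TRBV3, the exception, whose interval reached to both sides of 0. TRBV13-1 and TRBV13-3, which had opposite directions in V use, were both longer, by 0.298 and 0.407. TRBV17 differed by 0.115. Within D calls the difference was 0.210 for TRBD1, 0.285 for TRBD2 and 0.324 without a D call, and with both sets weighted alike over V and J genes it was 0.305.

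**Figure D3:**
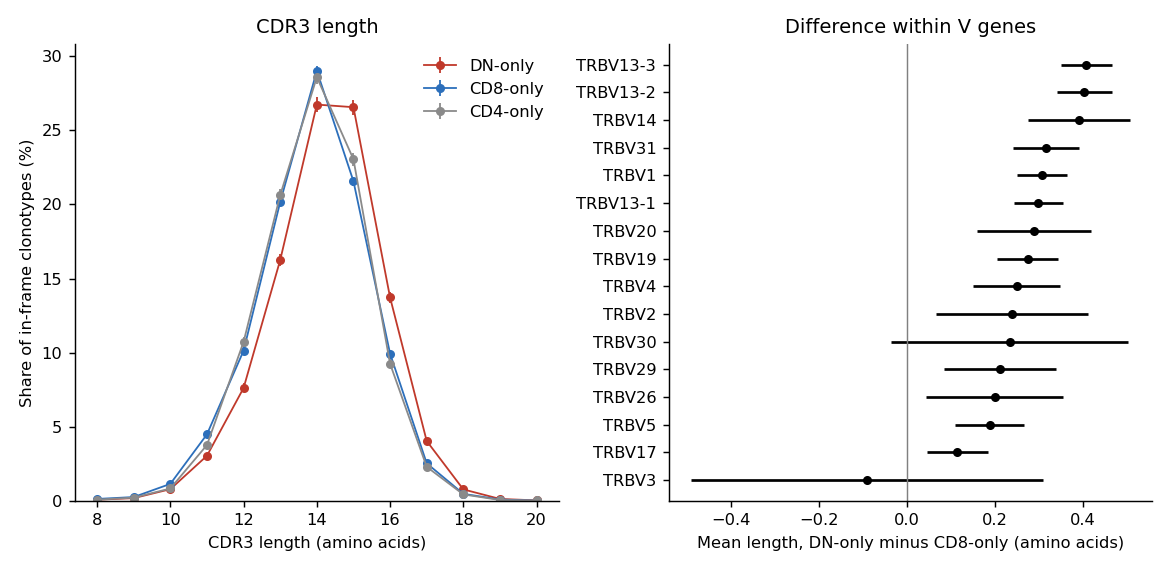
Left, share of in-frame clonotypes (%) by CDR3 length in amino acids for DN-only, CD8-only and CD4-only clonotypes. Right, mean length of DN-only minus CD8-only clonotypes (amino acids) within each of 16 V genes; bars are 95% counting intervals. The DN-only curve lies lower than both others from 11 to 14 residues and higher from 15 to 18, and 15 of 16 V genes lie to the right of 0.

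The CDR3 core of DN-only clonotypes had a net charge of -0.567 on average (SD 1.03), against -0.504 in CD8-only (SD 0.944) and -0.428 in CD4-only clonotypes, counting K and R as 1 and D and E as -1. The difference of -0.0632 (-0.0770 to -0.0494) combined more acidic residues per core (1.03 against 0.898) with more basic residues (0.460 against 0.394), both in longer cores. Weighted alike over V gene, J gene and length, the difference in charge was -0.000172. Aspartate was found in 56.8% of DN-only and 49.8% of CD8-only cores (1.14), glutamate in 27.7% and 26.4% (1.05), arginine in 36.1% and 31.1% (1.16) and lysine in 3.21% and 3.39% (0.948, 0.880 to 1.02).

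Tryptophan, a large aromatic residue, was the residue that differed most with a narrow interval. At least 1 tryptophan was found in the core of 27.8% of DN-only (27.3 to 28.3%), 14.1% of CD8-only (13.9 to 14.4%) and 10.9% of CD4-only clonotypes. The ratio of DN-only to CD8-only was 1.96 (1.91 to 2.02), and 1.71 after weighting both sets alike over V gene, J gene and length. Of the 20 residues, 11 differed by at least 1.1-fold (55%), 7 higher (35%) and 4 lower (20%) in DN-only.

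The other residues past the fold differed less or were rare. Cysteine had a ratio of 1.85 (1.27 to 2.69) from 49 DN-only and 62 CD8-only clonotypes. Tyrosine was found in 35.3% and 27.96% (1.26), valine in 12.4% and 10.3% (1.21) and phenylalanine in 6.15% and 5.39% (1.14), besides the arginine and aspartate above. The aromatic residues together (F, W and Y) were found in 54.4% and 40.4% (1.35). The lower ones were threonine with 28.2% against 32.6% (0.865), leucine with 20.9% against 23.4% (0.892), methionine (0.898) and glutamine with 28.3% against 31.2% (0.907). Weighting both sets alike over V gene, J gene and length left 6 residues past the fold: cysteine (2.16), tryptophan (1.71), phenylalanine (1.36), valine (1.11), glutamine (0.904) and threonine (0.864). It ended the calls of arginine (1.09), tyrosine (1.08), aspartate (1.04), leucine (0.944) and methionine (0.922), and with V and J genes alone leucine was at 1.02.

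**Figure D4:**
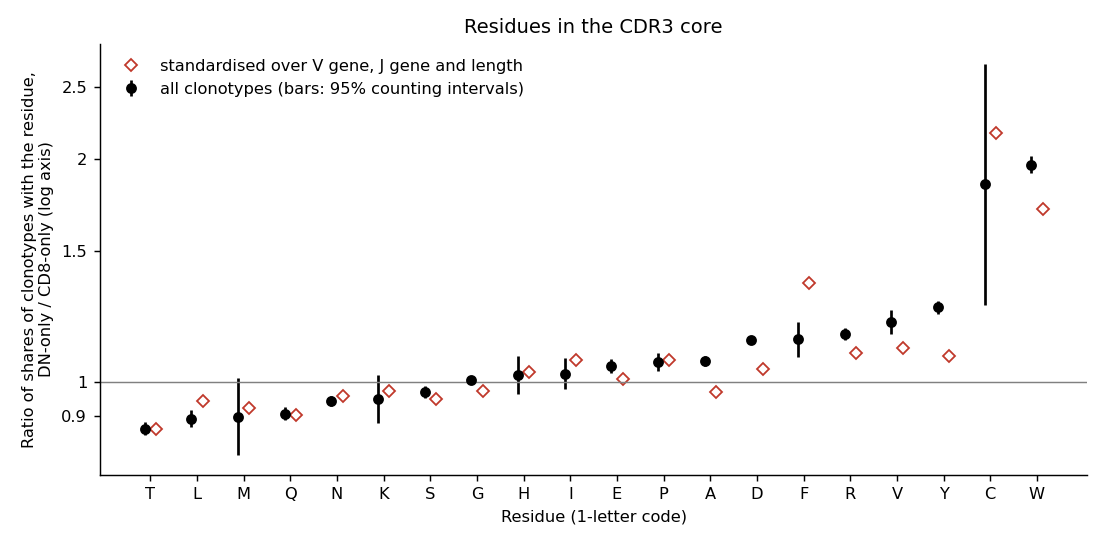
Ratio of the share of DN-only to that of CD8-only clonotypes with at least 1 of each residue in the CDR3 core (log axis), ordered by ratio. Filled points are all clonotypes with 95% counting intervals, and open diamonds the ratio after weighting both sets alike over V gene, J gene and CDR3 length. Tryptophan (W) lies at 1.96 and 1.71, and cysteine (C) has the widest interval (1.27 to 2.69).

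At CDR3 positions 6 and 7, which lie at the top of the loop, 19.8% of DN-only, 15.1% of CD8-only and 12.4% of CD4-only residues were hydrophobic (F, I, L, M, V, W or Y) in CDR3s of 11 to 18 residues. The difference of DN-only and CD8-only was 4.71 percentage points (4.36 to 5.07), and 4.01 when weighted alike over V gene, J gene and length. Tryptophan is among the residues counted, and the others were not counted as a group without it. Tryptophan alone differed by a similar amount at these positions in CDR3s of 14 residues, as given below. The aliphatic residues (I, L, M and V) were counted together over the whole core only. They were found in 37.7% of DN-only and 38.1% of CD8-only clonotypes (0.990, 0.973 to 1.01). In CDR3s of 14 residues, tryptophan stood at position 6 in 9.14% of DN-only and 5.06% of CD8-only clonotypes, at position 7 in 11.1% and 5.46%, and at position 8 in 5.21% and 2.04%. At position 3, where TRBV31 encodes a tryptophan outside the core, the order was turned, 7.04% against 12.9%.

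The higher share of tryptophan was not carried by TRBV13-1. The share was higher in DN-only clonotypes for 16 of 16 V genes, with ratios that varied widely (1.05 to 4.79). It was also higher for 12 of 12 J genes (1.55 to 2.28) and at 8 of 8 lengths from 11 to 18 residues (1.44 to 1.88). Among V genes the interval lay above 1 for 15 of 16, with TRBV3 (1.05, 0.737 to 1.495) as the exception. TRBV13-1 had 30.1% against 14.8%, TRBV13-3, which was used less in DN-only, 28.4% against 12.2% and TRBV14, with a V gene ratio of 0.359, 20.8% against 10.7%. Clonotypes with a single read had 27.1% in DN-only, and those with at least 10 reads had 29.7% in DN-only (n = 306) and 13% in CD8-only (n = 300), so the difference was present among rare and among larger clonotypes.

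Tryptophan was tied to the D call in both sets, and differed within each call. Of clonotypes called TRBD2, 55.5% of DN-only and 35.0% of CD8-only had a tryptophan in the core (1.59). The shares were 8.67% and 4.43% for TRBD1 (1.96) and 10.7% and 4.93% without a D call (2.18). Of the strings of 3 residues in the core, 343 were found in at least 250 clonotypes. They differed by at least 1.5-fold in 22.4%, with 52 higher (15.2%) and 25 lower (7.29%) in DN-only. Of 37 strings with tryptophan, 34 were among the 52 and none among the 25. These strings overlap within a CDR3, and clonotypes with tryptophan were already more frequent in DN-only. The count is therefore not a separate result. The highest ratio was that of W-D-W, in 245 DN-only (0.845%) and 150 CD8-only clonotypes (0.221%), 3.82 (3.12 to 4.68), and the lowest that of L-G-T, in 0.400% and 0.947%, 0.423 (0.347 to 0.515).

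Some of these strings, such as those with W-G, can be read from TRBD2, which is rich in G and can be translated in any of 3 frames. The 8 bases ACTGGGGG were present in 43.0% of in-frame clonotypes called TRBD2 and in 0.540% of those called TRBD1, over all 3 libraries, and served to find the frame. They read as tryptophan and glycine in 1 frame, as threonine and glycine in another and as leucine and glycine in the third. The largest TRBV13-1 clonotypes with TRBJ2-7 in each frame are printed with these bases in capitals, to show how the same D segment gives different loops. The frame follows from how many bases stand before the capitals.
DN-only, tryptophan frame: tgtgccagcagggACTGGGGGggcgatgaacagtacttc
DN-only, threonine frame: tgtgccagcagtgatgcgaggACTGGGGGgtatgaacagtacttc
DN-only, leucine frame: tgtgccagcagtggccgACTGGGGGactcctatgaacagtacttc
CD8-only, tryptophan frame: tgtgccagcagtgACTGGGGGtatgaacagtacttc
CD8-only, threonine frame: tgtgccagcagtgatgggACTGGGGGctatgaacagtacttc
CD8-only, leucine frame: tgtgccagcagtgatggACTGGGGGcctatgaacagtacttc

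The DN-only clonotypes had 17, 6 and 12 reads in the tryptophan, threonine and leucine frames, and the CD8-only clonotypes had 11, 5 and 6 reads. With this V-J pair, the tryptophan frame was found in 298 DN-only clonotypes, the threonine frame in 51 and the leucine frame in 67, or 1.03%, 0.176% and 0.231% of the DN-only set. In CD8-only clonotypes the numbers were 107, 51 and 61, or 0.158%, 0.0752% and 0.0899% of their set. The pair as a whole was more frequent in DN-only, and each frame was higher there. Among the clonotypes of this pair that held the 8 bases, 71.6% of DN-only (67.0 to 75.9%, n = 416) and 48.9% of CD8-only (42.1 to 55.7%, n = 219) were in the tryptophan frame. Over all V and J genes the 8 bases were found in 5338 DN-only (18.4%) and 9088 CD8-only clonotypes (13.4%), a ratio of 1.37 (1.33 to 1.42). Of these, 62.9% of DN-only (61.6 to 64.2%) and 41.5% of CD8-only clonotypes (40.5 to 42.5%) were in the tryptophan frame, and 34.5% of CD4-only. The threonine frame took 14.7% and 28.03%, and the leucine frame 22.4% and 30.5%. These shares add up to the whole, so a higher share of 1 frame lowers the others. As a share of all clonotypes of the set, the tryptophan frame was higher in DN-only (11.6% against 5.56%; 2.08, 1.99 to 2.18), the threonine frame lower (2.71% against 3.76%; 0.722, 0.667 to 0.781) and the leucine frame differed by less than the counting error (4.12% against 4.08%; 1.01, 0.945 to 1.08).

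Among nonproductive clonotypes the frame was counted in the same way. There the 8 bases were present in 20.96% of DN and 23.9% of CD8 clonotypes (0.879, 0.805 to 0.959), the opposite order to that in frame. The tryptophan frame, counted from the conserved cysteine, made up 56.4% of these in DN (52.6 to 60.1%, n = 706), 43.7% in CD8 (40.4 to 47.1%, n = 871) and 35.1% in CD4, and the ratio of DN to CD8 was 1.29 (1.17 to 1.42). As a share of all nonproductive clonotypes the tryptophan frame made up 11.8% in DN and 10.4% in CD8, with an interval of the ratio that included 1 (1.13, 0.992 to 1.29). Errors in reads of in-frame chains can carry the frame of those chains. A base added or lost between the cysteine codon and the 8 bases would change it. The part of such errors in this value was not tested.

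**Figure D5:**
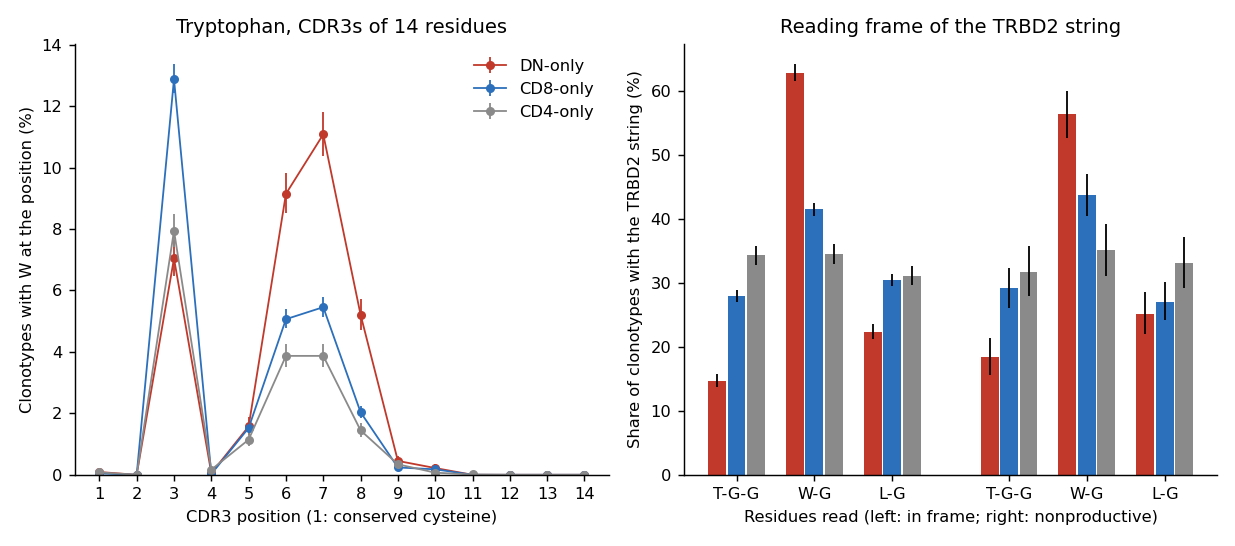
Left, share of clonotypes with 14-residue CDR3s (%) that had tryptophan at each position, for DN-only, CD8-only and CD4-only clonotypes. Right, share (%) of the clonotypes holding the 8 TRBD2 bases that read them in each of 3 frames, for in-frame and for nonproductive clonotypes, with the same colours for DN, CD8 and CD4; bars on points and columns are 95% counting intervals. DN-only clonotypes lie above the others at positions 6 to 8, and of the clonotypes holding these bases, the share in the tryptophan frame (W-G) is highest in DN, in frame (62.9%) and nonproductive (56.4%).

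The values on both sides of the rule are given as a description. In the DN library, clonotypes with 0, 1 and at least 2 reads elsewhere used TRBV13-1 in 19.3%, 18.8% and 18.9%, and had a tryptophan in 27.8%, 28.4% and 27.6%. DN clonotypes just inside and just outside the rule thus had nearly the same values of both measures. Mean CDR3 length was 14.24, 14.18 and 14.07 amino acids in the DN library, and 13.90, 13.80 and 14.09 in the CD8 library. In the CD8 library the shares were 8.12%, 14.98% and 17.8% for TRBV13-1, 14.1%, 20.9% and 26.7% for tryptophan, and 7.05%, 3.48% and 2.70% for TRBV14. CD8 clonotypes that were also read in the DN library are DN clonotypes too, so their values are in part those of the DN library by construction. Over all in-frame clonotypes, shared ones included, the ratio was 2.08 for TRBV13-1 and 1.80 for tryptophan. Clonotypes held by both libraries enter both shares and bring these ratios closer to 1 by construction.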

How the data were processed

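TCR libraries were made by the authors from the mRNA of CD4, CD8 and DN T cells of 1 mouse with a Takara SMARTer kit for both TCR chains, 1 library per subset, and MiXCR was used to align reads, assemble them and export clonotypes. Its version, settings and filters are not given in the sources used here. The deposited tables give each clonotype's count of reads, not normalized, and its fraction of the library's reads, along with nucleotide and amino acid CDR3 and the best V, D and J gene. All columns used belonged to 1 sample each.

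Clonotypes with TRB V and J genes and a CDR3 without frame shift or stop codon were kept if absent from both other tables, without a minimum of reads, and counted once. Shares have exact Clopper-Pearson 95% intervals, ratios log-scale intervals and differences of means normal intervals. Weighted values were taken over strata of V gene, J gene and, where stated, length that both sets held, each stratum weighted by the clonotypes of both sets. TRB depth was 194290 (DN), 150874 (CD8) and 133667 (CD4) reads. Older family names and gene order came from the RefSeq gene list of GRCm38.p6. No genome build is named for the tables, and no coordinates were used.

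All V and J genes with at least 50 clonotypes in both sets, the 5 highest and 5 lowest V-J pairs with at least 100, residues past 1.1-fold with the 4 charged ones, and the 3 clonotypes with most reads per set were named. The members and lists were chosen with earlier results of these data known. The tryptophan ratio, the 3-residue strings, the work on D calls and on the frame of TRBD2 and its printed examples, the departures of V-J pairs from the product, and the removal of variants at 2 times the reads were chosen after seeing values. Alternatives covered minimum reads, equal depth (means of 20 draws), near-identical variants, identity by amino acids, weighting, folds, CDR3 trimming and all in-frame or nonproductive clonotypes. The measures were tested on simulated data. Python 3.11.15, NumPy 2.4.6, pandas 2.3.3, SciPy 1.17.1 and matplotlib 3.10.9 were used.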

Additional observations from a re-analysis of the deposited data

How the results depend on the processing

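Of 143 alternative values of 10 results, 106 moved by less than the counting error, or by less than 1.5 times for counts, 36 moved by more, and 1 turned its direction. The cause of these changes was not tested, beyond what each setting itself leaves out. The number of V genes past the fold (14) stayed between 11 and 16. The 2 J genes past the fold became 1 with at least 2 reads, without variants of clonotypes with 10 times the reads and over all in-frame clonotypes, 1.2 on average at equal depth, and 0 at 1.5-fold and without variants of clonotypes with 2 times the reads. The 80 V-J pairs became 35 at 2-fold, and the 11 residues became 6 when weighted over V, J and length. The TRBV13-1 ratio of 2.37 was 2.28 with amino acid clonotypes counted once, 2.08 over all in-frame and 1.23 over nonproductive clonotypes. The TRBJ2 ratio of 1.02 was 1.005 with at least 2 reads and turned to 0.954 among nonproductive clonotypes. The length difference of 0.341 was 0.453 with at least 2 reads, 0.384 when absence was judged by amino acids, 0.318 with amino acid clonotypes counted once, 0.297 over all in-frame clonotypes, 0.431 weighted by reads, 0.305 weighted over V and J, and 0.210 and 0.285 within TRBD1 and TRBD2. The charge difference of -0.0632 was -0.0984 over the whole CDR3, -0.0194 weighted over V and J and -0.000172 with length added. The hydrophobic difference of 4.71 points was 5.27 with at least 2 reads, 4.33 over all in-frame clonotypes, 4.34 weighted over V and J, 4.01 with length added and 5.09 at lengths of 13 to 15. The tryptophan ratio of 1.96 was 2.05 with at least 2 reads, 2.07 when absence was judged by amino acids, 1.80 over all in-frame clonotypes, 1.88 weighted over V and J, 1.71 with length added, 2.10 without the first 5 and last 5 residues, 1.59 within TRBD2 and 2.18 without a D call. No paired analysis was possible because each subset had 1 library. Differences between mice and between library preparations were not measured, and single reads made up most clonotypes, so genes with few members, such as TRBV23, are limited by depth.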

Other observations

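Some DN-only and CD8-only clonotypes encoded the same CDR3 amino acids with the same V and J gene through different bases. There were 1945 such amino acid clonotypes, 6.94% of the 28012 in the DN-only set and 3.08% of the 63147 in the CD8-only set. The 2161 DN-only nucleotide clonotypes that encoded them had a mean CDR3 length of 13.7 amino acids, against 14.3 for the other DN-only clonotypes. They lacked a D call in 29.6% against 22.4%, and had a tryptophan in the core in 24.3% against 28.1%. TRBV13-1 made up 18.2% of them, close to the 19.3% of the whole DN-only set.

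Clonotypes 1 mismatch from a clonotype with at least 10 times the reads and the same V and J gene made up 3.14% of DN-only (910) and 1.98% of CD8-only clonotypes (1345). Without them tryptophan was found in 27.6% of DN-only and 13.9% of CD8-only clonotypes. With a limit of 2 times the reads, such clonotypes made up 14.6% of DN-only (4232) and 13.2% of CD8-only clonotypes (8987). Among the rest, tryptophan was found in 27.1% and 13.6%.

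Of 306 strings of 3 residues without tryptophan, 18 were higher in DN-only (5.88%), against 15.2% of all 343 strings. Of 38 strings with tyrosine and no tryptophan, 7 were higher (18.4%), G-F-Y (2.35) and G-P-Y (2.27) among them. Of 39 strings with leucine, 6 were higher (15.4%, against 15.2% of all strings) and 7 lower (17.9%, against 7.29% of all strings). The strings overlap within a CDR3 and are not independent of each other.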
